A study of Mus musculus with 9 samples.

Results

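The replication-dependent histone genes were described in mouse pancreatic stellate cells, the fibroblast-like cells of the pancreas. They were taken as every row of the deposited count table whose symbol begins with Hist1h, Hist2h, Hist3h or Hist4h. This gave 67 genes of 17156 in all: 6 for H1, 19 for H2A, 18 for H2B, 11 for H3 and 13 for H4. Of these, 64 of 67 passed the filter on low counts that left 13613 genes for testing. The other members, Hist1h2aa, Hist1h2ba and Hist1h2al, had at most 7 counts in any library.

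Stellate cell lines of wild-type C57BL/6J mice were kept for 4 days in 1 of 3 media, with 3 libraries per medium. MG-CM was the control medium, DMEM with 5% FBS. CM was medium conditioned by tumour organoids. CM-JAKi was the same kind of medium to which the JAK inhibitor AZD1480 had been added at 500 nM. Replicate 1 of each group was the line PSC4 and replicates 2 and 3 were PSC5-I and PSC5-II. Each replicate number had its own source of conditioned medium, so line and source change together, and only PSC4 and PSC5 stand behind all 9 libraries. Total RNA was depleted of ribosomal RNA and was not selected for poly(A) tails.

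Most mRNAs of replication-dependent histones end in a short stem-loop in place of a poly(A) tail. The stem-loop binding protein Slbp and the U7 snRNP, which holds Lsm10 and Lsm11, direct the cut that forms this end. The genes are switched on through Npat as cells enter S phase, so that new histones meet new DNA, and the mRNAs are degraded when replication stops. H2A, H2B, H3 and H4 form the nucleosome core, around which DNA is wound, and H1 binds the linker DNA. The gene copies of a type differ little in sequence, and a few of them, among them Hist1h1c, Hist1h2bc and Hist2h2be, are known to be made also as polyadenylated RNA.

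The stem-loop is shown because it sets how these RNAs end and why a total RNA library can hold them. GENCODE M21 transcripts, of build GRCm38.p6, were matched to all 67 members by symbol, and 43 of 67 held a 16-base match. Some annotated transcripts, such as that of Hist1h2ak, end with the coding part and cannot show one. Of 53 members whose longest transcript exceeds the coding part by over 60 bases, 43 held a match (81.1%). Among 21810 other protein-coding genes 4 had such a match, which is 0.0183%. The most frequent forms follow, written as DNA from 5′ to 3′, with the stem in capitals and the loop in lower case.

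Form in 25 members of H1, H2A, H2B and H3: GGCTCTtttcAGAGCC
Form in 7 members, all H4: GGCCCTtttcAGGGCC
Form in 6 members of H1, H2B and H3: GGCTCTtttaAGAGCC
Form in 2 members, both H4 and one of them Hist2h4: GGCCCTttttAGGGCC

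All 10 H4 genes with a match carried a stem that starts GGCC, and the other members with a match carried one that starts GGCT. Of 43 matched members, 16 had an annotated transcript that runs more than 200 bases past the stem-loop.

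Coding sequences ranged from distinct to identical within a type. The 13 H4 genes had 12 distinct coding sequences and encode 1 protein. The 11 H3 genes encode 2 proteins, the 18 H2B genes 11, the 18 H2A genes with a coding sequence 9, and the 6 H1 genes 6. Median pairwise identity of the coding bases was 73.21% for H1, 91.35% for H2A, 96.59% for H2B, 97.57% for H3 and 93.91% for H4. The deposited counts are estimates that divide reads between such copies, so sums over a type rest on firmer ground than single near-identical genes.

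RefSeq promoters, of build GRCm38.p6 and running from 250 bases before to 50 bases after the start, were in hand for 61 of 67 members. CCAAT, on either strand, was in 85.2% of them against 37.4% of 32851 promoters of the same length. It was in 100% of the H1, H2A, H2B and H3 promoters and in 25% of the H4 promoters. TATAAA was in 57.4% against 13.6%. The octamer ATTTGCAT was in 38.9% of H2A and 37.5% of H2B promoters, in 0% of those of H1, H3 and H4, and in 1.74% of all promoters. None of the 3 motifs contains another, and a match is a description of sequence only. Some H2A and H2B windows overlap on opposite strands, so the same match can count for both types. An H2B gene that was called in a comparison, Hist1h2bp, and the H2B gene with the most counts, Hist1h2bk, are shown with every match of the 3 motifs, on either strand, in capitals. Hist1h2bp lies at chr13:21787238-21787537 and Hist1h2bk at chr13:22035571-22035870, both on the + strand.

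Hist1h2bp promoter: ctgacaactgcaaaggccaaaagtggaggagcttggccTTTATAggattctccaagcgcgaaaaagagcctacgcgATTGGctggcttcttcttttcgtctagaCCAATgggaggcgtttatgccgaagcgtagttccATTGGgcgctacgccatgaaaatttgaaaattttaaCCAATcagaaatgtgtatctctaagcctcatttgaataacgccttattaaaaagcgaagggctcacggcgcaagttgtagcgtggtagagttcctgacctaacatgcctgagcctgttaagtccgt
Hist1h2bk promoter: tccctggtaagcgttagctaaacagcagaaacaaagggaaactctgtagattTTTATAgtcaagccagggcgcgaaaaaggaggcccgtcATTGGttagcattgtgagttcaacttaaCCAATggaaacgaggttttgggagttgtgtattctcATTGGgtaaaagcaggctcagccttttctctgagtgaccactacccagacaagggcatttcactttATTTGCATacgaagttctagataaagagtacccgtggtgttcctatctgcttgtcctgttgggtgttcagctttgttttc

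Hist1h2bp lacked the octamer in this window and Hist1h2bk held it before the start. The window of Hist1h2bk overlaps that of Hist1h2ah on the other strand, and that octamer lies in both. The window of Hist1h2bp overlaps that of Hist1h2an in the same way. In each printed window the only TATAAA match is on the other strand and lies also in the window of that H2A gene.

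Libraries held 25625806 to 32466018 counts. The members held 232786 to 307357 counts of a library, or 0.8032% to 1.055%. Levels are CPM, counts divided by the library total in the usual units, scaled by the trimmed mean of M-values (TMM), and are not divided by transcript length. Summed over 10 stellate and fibroblast markers, levels were 5136 to 8180 CPM. The epithelial marker Epcam was at 0 to 0.179 CPM and the leukocyte marker Ptprc at 0 to 0.0386 CPM. Sums of 8 epithelial, 7 leukocyte, 6 endothelial and 2 acinar markers were at most 48.97, 116.9, 16.19 and 13.98 CPM. Among the stellate markers Dcn rose and Vim fell in CM against MG-CM, and in CM-JAKi against CM Col1a1 and Col1a2 rose and Dcn fell. Muc1 of the epithelial list and Cela1 of the acinar list also fell with the inhibitor. The endothelial sum was 6.154 to 8.379 CPM in MG-CM, 3.166 to 4.528 in CM and 8.913 to 16.19 in CM-JAKi. Its members Tek and Emcn fell in CM and rose in CM-JAKi against CM, and Emcn was also higher in CM-JAKi than in MG-CM. The leukocyte sum was 22.95 to 34.85 CPM in MG-CM, 34.26 to 116.9 in CM and 15.89 to 32.58 in CM-JAKi. Most of the highest value was Cd14, at 113.4 CPM in CM replicate 1. The part of other cells in the results was not tested.

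Summed over all members, MG-CM had levels of 9835, 10450 and 10290 CPM, given here and below in the order of replicates 1, 2 and 3. In CM the level was 10190, 8421 and 10050 CPM, and in CM-JAKi 9140, 7698 and 8982 CPM. The means were 10190 ± 320.4, 9555 ± 984.8 and 8606 ± 790.8 CPM (SD, n = 3). All 3 CM-JAKi libraries were below all 3 MG-CM libraries, whereas CM overlapped with both. Replicate 2 was the lowest library in CM and in CM-JAKi but the highest in MG-CM. In bulk RNA, fewer cells in S phase and less histone RNA per cell cannot be told apart.

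The shares of the types in the member total varied little. H1 took 13.1% to 15.7% of it over the 9 libraries, H2A 17.4% to 19.1%, H2B 24.7% to 26.4%, H3 15.4% to 16.6% and H4 24.8% to 27.7%. The median SD of log2 CPM over the 9 libraries was 0.18 for the 64 members, with quartiles of 0.16 and 0.248. For all genes tested it was 0.22, with quartiles of 0.147 and 0.36. The sets were not matched by level.

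**Figure D1:**
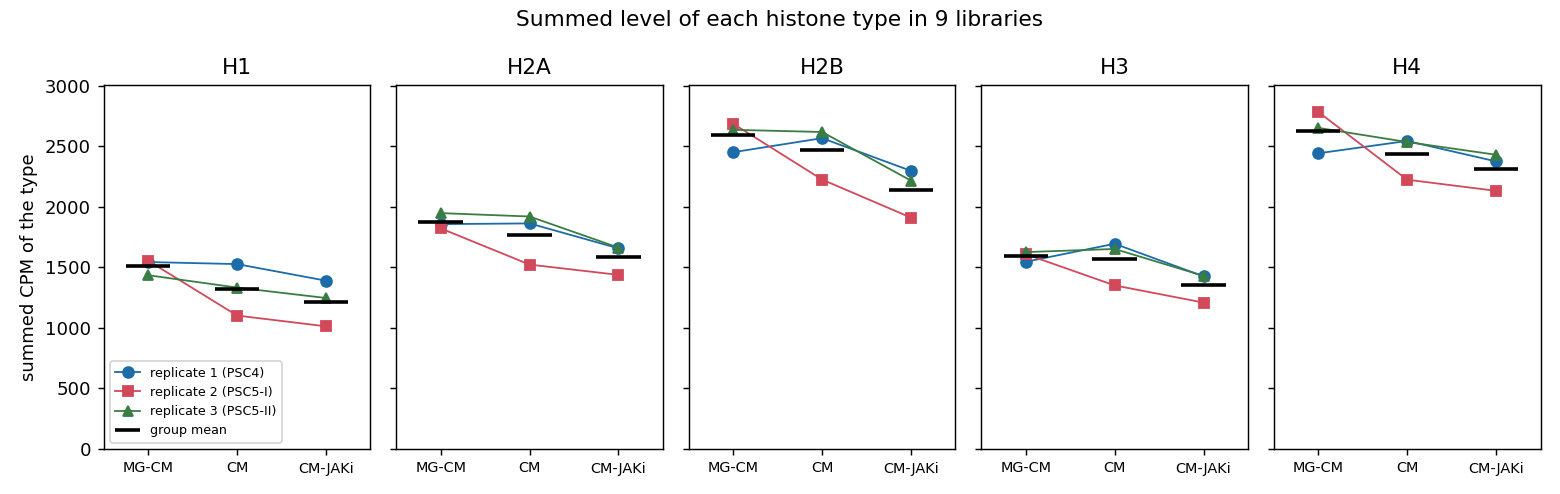
Summed CPM of the genes of each histone type (vertical axis, from 0) in the 3 media (horizontal axis), with 1 point per library, lines joining libraries of the same replicate number and bars at the group means. Each type is lower in CM-JAKi than in CM in all 3 lines drawn, and replicate 2 is the lowest in CM and CM-JAKi.

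CM was set against MG-CM to ask what organoid-conditioned medium does to stellate cells. No member was called in either direction in the fit with a term per group alone. The median log2 fold change of the members was -0.0783, against 0.00575 over all genes tested, and 48 of 64 members were negative. Over all genes 6716 of 13613 were negative. Within ±0.5 lay 62 of 64 members and 77.4% of all genes. Replicate 2 stood apart. The median log2 ratio of the members was 0.0346 in replicate 1, -0.276 in replicate 2 and -0.0214 in replicate 3, and 28, 60 and 37 of 64 members were lower in CM. The log2 ratio of the summed level was -0.0932 with all libraries and 0.00843 without replicate 2.

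Counts of calls in CM against MG-CM stayed at or below those of all genes. By edgeR's quasi-likelihood test 0 members were called higher and 0 lower, where 4.85% of all genes tested rose and 5.39% fell. With p under 0.05 before adjustment, 1 member was higher and 6 were lower, against 13.9% and 14.4% of all genes. With the replicate block 0 members were called higher and 4 lower, namely Hist1h2ad, Hist1h2af, Hist1h4b and Hist1h4k, where 11.6% of all genes were higher and 12.8% lower. DESeq2 called 0 higher and 3 lower, namely Hist1h4a, Hist1h4b and Hist1h4k, beside 8.88% and 9.63% of all genes. The groups did not overlap for 1 member higher and 15 lower in CM, beside 16.6% and 16.1% of all genes. The 15 of 64 are 23.4%.

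By type, H1 was the lowest in CM. Its summed level was 1543, 1554 and 1434 CPM in MG-CM and 1526, 1101 and 1332 CPM in CM. Each CM library was below the same-numbered control, but the CM library of replicate 1 lay within the range of the controls. The log2 ratio of the H1 means was -0.194, and -0.0585 without replicate 2. It was -0.0849 for H2A, -0.0691 for H2B, -0.0252 for H3 and -0.109 for H4. Each of the 5 was smaller in size than the SD of its 3 pair ratios, which was 0.145 to 0.256. Without replicate 2 the ratios from H2A to H4 were -0.00855, 0.0276, 0.0776 and -0.00415.

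Of the 6 H1 genes, Hist1h1b, Hist1h1c, Hist1h1d and Hist1h1e were lower in CM in 3 of 3 pairs, with log2 fold changes of -0.30, -0.27, -0.27 and -0.26 and 0 calls. Hist1h1c, which took 29% of the H1 counts, was at 462.6, 468.9 and 418.1 CPM in MG-CM and at 433.8, 327.9 and 356.7 CPM in CM. Its adjusted p was 0.237 by edgeR's quasi-likelihood test and 0.0728 with the replicate block. Hist1h1a went the other way in 2 of 3 pairs, at 207.9, 197.4 and 199.7 CPM in MG-CM and 293.5, 172 and 233 CPM in CM. Hist1h1t, the testis form of H1, was between 2.831 and 4.035 CPM in all 9 libraries.

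Core histone genes called only with the block or by DESeq2 in this comparison belonged to H2A and H4. Hist1h4b was at 117.1, 132.2 and 124.5 CPM in MG-CM and 100.5, 77.57 and 106.4 CPM in CM, so that the groups did not overlap. Its log2 fold change was -0.40 ± 0.13 (SE), with an edgeR adjusted p of 0.0861 and 0.0412 with the replicate block. Hist1h4k had -0.29 ± 0.08, with 0.0638 and 0.0418. The largest positive value of the comparison was that of Hist2h4, an H4 gene of chromosome 3, at 0.38 ± 0.16 and an edgeR adjusted p of 0.167.

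What JAK inhibition does in conditioned medium is the question of CM-JAKi against CM. Hist1h2bp and Hist2h4 fell, and no member rose. No other member was called in the fit with a term per group alone. The median log2 fold change of the members was -0.167, against 0.00802 over all genes, and 52 of 64 were negative and 12 positive. Over all genes tested 6692 of 13613 were negative. The members' medians in the 3 pairs were -0.159, -0.178 and -0.166, with 50, 50 and 54 of 64 members lower. In 3 of 3 pairs 43 of 64 were lower and 5 higher. For all genes, counts by pair are not given in any of the 3 comparisons, so those of the members lack a reference. The log2 ratio of the members' summed level was -0.151, with pair values of -0.157, -0.129 and -0.163, a change of -9.93% in the mean. The SD of the pair values was 0.0177.

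The size of this difference rested on the scaling. With library size alone the median of all genes shifted to 0.103, the median of the members was -0.069, and 42 of 64 members were negative. Relative to all genes the members' median was -0.172 there and -0.175 with TMM. As shares of all counts, the members' log2 ratios were -0.0306, -0.0483 and -0.0671 in the 3 pairs.

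Called members were few in CM-JAKi against CM. By edgeR's quasi-likelihood test 0 were called higher and 2 lower, where 10.1% of all genes tested rose and 8.93% fell. With p under 0.05 before adjustment, 1 member was higher and 13 were lower, against 18.2% and 16.2% of all genes. With the replicate block 0 were called higher and 9 lower, against 18.6% and 15.6% of all genes. By DESeq2 0 were called higher and 9 lower, against 13.4% and 12.7%. Both added Hist1h2ae, Hist1h2bb, Hist1h2be, Hist1h3e, Hist1h3h and Hist2h3b to the 2 called genes, and Hist1h2ac was added by the block alone and Hist1h4m by DESeq2 alone. The groups did not overlap for 3 members higher and 9 lower, against 19.5% and 18.7% of all genes.

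Hist1h2bp, an H2B gene, was at 38.22, 28.14 and 28.13 CPM in CM replicates 1, 2 and 3 and at 21.7, 17.98 and 18.83 CPM in CM-JAKi. In MG-CM it was at 28.04, 30.44 and 26.73 CPM. All 3 CM-JAKi libraries were below the other 6. The log2 fold change against CM was -0.69 ± 0.14, with an edgeR adjusted p of 0.0137, and 0.00455 with the replicate block. Against MG-CM it was -0.54 ± 0.14, with an edgeR adjusted p of 0.153, and 0.0425 with the replicate block. The call against CM was lost without CM-JAKi replicate 2 (0.0574), without all libraries of replicate 2 (0.139) and without those of replicate 3 (0.1).

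Hist2h4 was at 145.2, 121.3 and 136.9 CPM in CM, 88.3, 71.26 and 104.4 CPM in CM-JAKi and 84.81, 110.3 and 115.2 CPM in MG-CM. All 3 CM libraries were above the other 6. The log2 fold change against CM was -0.61 ± 0.16, with an edgeR adjusted p of 0.0331 and 0.0168 with the replicate block. The edgeR call was lost without CM replicate 1 (0.0935) or 3 (0.0681), without CM-JAKi replicate 1 (0.0622) or 2 (0.106), and without all libraries numbered 1 (0.0816), 2 (0.205) or 3 (0.0949). Its nearest member by coding sequence, Hist1h4k, is 91.03% identical, and its annotated transcript runs 1257 bases past the stem-loop.

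**Figure D2:**
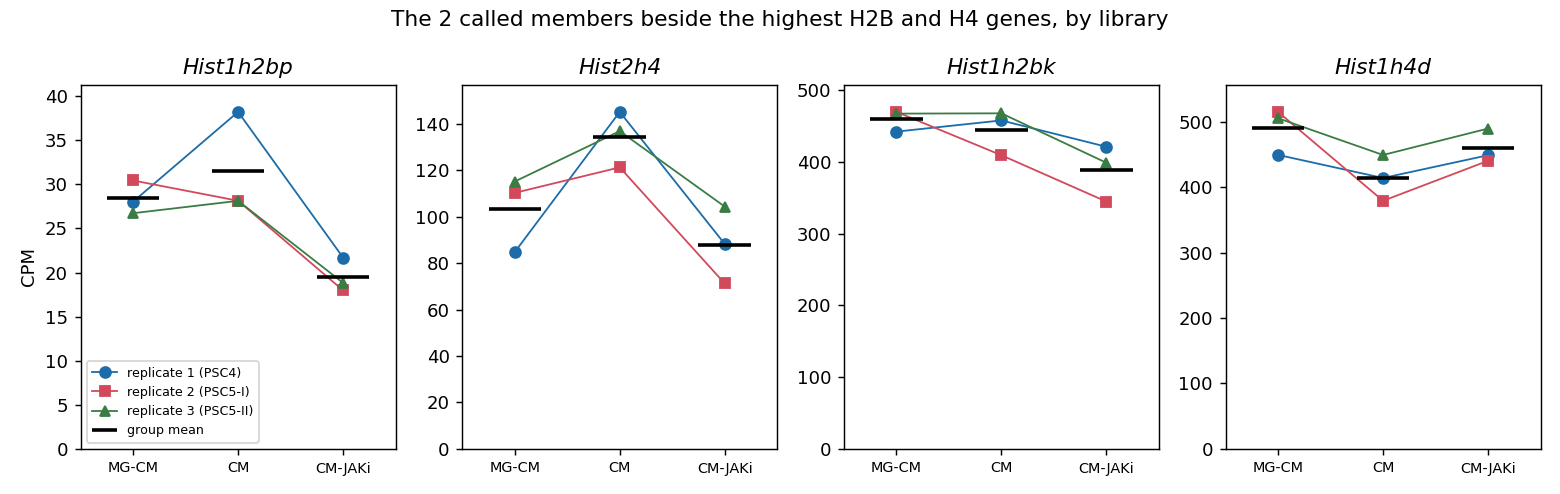
CPM (vertical axes, from 0) of Hist1h2bp and Hist2h4, which fell in CM-JAKi against CM, and of Hist1h2bk and Hist1h4d, the H2B and H4 genes with the most counts, in the 3 media, with 1 point per library and bars at the group means. Hist1h2bp is lowest in CM-JAKi, Hist2h4 is highest in CM, Hist1h2bk is at 344.7 to 421.1 CPM in CM-JAKi, and Hist1h4d is lowest in CM.

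Every type was lower in CM-JAKi than in CM in 3 of 3 pairs, though for H4 the mean ratio flipped to 0.0277 with library size alone. H3 and H2B had the lowest ratios. Summed H3 was 1694, 1350 and 1651 CPM in CM and 1425, 1208 and 1429 CPM in CM-JAKi, a log2 ratio of -0.209 with pair values of -0.25, -0.161 and -0.208. Summed H2B was 2566, 2224 and 2617 CPM in CM and 2296, 1910 and 2215 CPM in CM-JAKi, a log2 ratio of -0.206. The ratio was -0.158 for H2A, -0.119 for H1 and -0.074 for H4. The differences between types were not tested.

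All 11 H3 genes were negative in CM-JAKi against CM, with a median of -0.267. Hist2h3b, which took 13.8% of the H3 counts, was at 253, 197.5 and 229.3 CPM in CM and 192.6, 164.4 and 188.8 CPM in CM-JAKi. Its log2 fold change was -0.31 ± 0.11, with an edgeR adjusted p of 0.0835, and 0.0236 with the replicate block. Hist1h3b and Hist1h3c, the H3 genes next in CPM, had -0.04 ± 0.12 and -0.02 ± 0.11. These H3 genes of like CPM had unlike values, but the difference between members was not tested.

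Among H2B genes, Hist1h2bb was at 334.6, 269.1 and 313.8 CPM in CM and 266.3, 211.2 and 251.1 CPM in CM-JAKi. Its groups did not overlap, and its log2 fold change was -0.33 ± 0.12, with an edgeR adjusted p of 0.0827, and 0.0322 with the replicate block. Hist1h2bk, which took 18% of the H2B counts, was at 457.8, 409.3 and 467.7 CPM and then 421.1, 344.7 and 398.8 CPM, with -0.19 ± 0.10 and an adjusted p of 0.229. Of the 3 H2B genes with positive values, Hist2h2be had the highest, at 3.795, 4.153 and 4.188 CPM in CM and 5.993, 4.48 and 4.591 CPM in CM-JAKi. It was higher in 3 of 3 pairs, with 0.32 ± 0.17 and an adjusted p of 0.212.

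H4 genes divided by direction, as seen after their values were known. Hist1h4a, Hist1h4b, Hist1h4d and Hist1h4k were lower in CM than in MG-CM in 3 of 3 pairs and higher in CM-JAKi than in CM in 3 of 3 pairs. Hist1h4d, which took 18.5% of the H4 counts, was at 449.6, 515.4 and 505.7 CPM in MG-CM, 414.3, 379.4 and 449.5 CPM in CM and 449.1, 440.6 and 489.9 CPM in CM-JAKi. Its log2 fold changes were -0.25 ± 0.10 and 0.16 ± 0.10, with edgeR adjusted p of 0.158 and 0.319. The 2 comparisons share the CM libraries. The other 8 H4 genes apart from Hist1h4c were lower in CM-JAKi than in CM in 3 of 3 pairs, Hist2h4 among them. Hist1h4h, for example, was at 404.8, 334.1 and 408.2 CPM in CM and 350.8, 283.3 and 344.4 CPM in CM-JAKi, with -0.22 ± 0.12. All 13 genes encode the same protein.

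**Figure D3:**
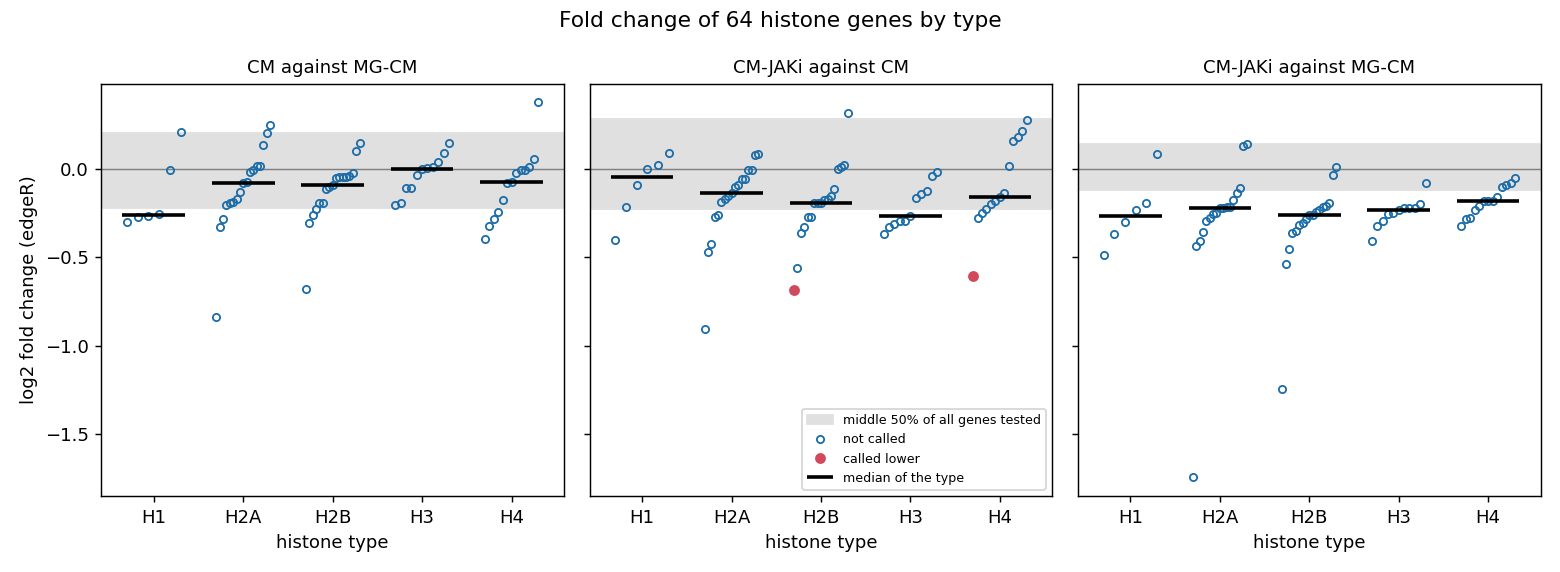
Log2 fold change of each of the 64 tested members (vertical axis) by histone type (horizontal axis) in the 3 comparisons, with open circles for members not called, filled circles for called members, bars at the medians of the types and a grey band for the middle 50% of all genes tested. In CM-JAKi against MG-CM all H3 and H4 genes lie below 0, and in CM-JAKi against CM the 2 filled circles are Hist1h2bp and Hist2h4.

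CM-JAKi was set against MG-CM to ask how far cells in inhibited conditioned medium are from the control. No member was called in the fit with a term per group alone, but 60 of 64 had a negative fold change. This number was the same with TMM, with DESeq2's size factors and with library size alone. The median log2 fold change was -0.234, against 0.00541 over all genes tested, of which 6656 of 13613 were negative. Pair medians were -0.112, -0.45 and -0.199, with 54, 62 and 57 of 64 members lower. The summed level changed by -15.6%, a log2 ratio of -0.244, and of -0.151 without replicate 2.

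Few genes of any kind were called here. By edgeR's quasi-likelihood test 0 members were called higher and 0 lower, where 0.286% of all genes tested rose and 0.720% fell. With p under 0.05 before adjustment, 0 members were higher and 25 of 64 lower, against 5.36% and 5.31% of all genes. With the replicate block 0 were called higher and 5 lower, namely Hist1h2ab, Hist1h2ad, Hist1h2bl, Hist1h2bp and Hist1h2br, against 1.85% and 2.40% of all genes. By DESeq2 0 were called higher and 8 lower, against 1.51% and 2.40%. The groups did not overlap for 0 members higher and 35 lower, against 8.67% and 8.40% of all genes, and 35 of 64 are 54.7%. The members share libraries and sequence, so these counts are not counts of independent events.

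All types took part. The log2 ratio of the summed level was -0.313 for H1, -0.242 for H2A, -0.275 for H2B, -0.235 for H3 and -0.183 for H4, and each type was lower in 3 of 3 pairs. For each type the pair of replicate 2 lay furthest from 0, at -0.619, -0.342, -0.491, -0.413 and -0.385 in that order. Without replicate 2 the ratios from H1 to H4 were -0.176, -0.197, -0.173, -0.152 and -0.0841. All 11 H3 genes were lower in 3 of 3 pairs, and for 9 of them the groups did not overlap. The same held for 11 of 17 H2B genes, 7 of 17 H2A genes, 5 of 13 H4 genes and 3 of 6 H1 genes, beside 8.40% of all genes.

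Single genes show the size of these differences. Hist1h1d was at 227.5, 238.5 and 217.1 CPM in MG-CM and 193.7, 131.4 and 161.5 CPM in CM-JAKi, with a log2 fold change of -0.49 ± 0.17 and an edgeR adjusted p of 0.299. Hist1h2ad was at 59.81, 54.24 and 55.57 CPM and then 45.89, 40.8 and 38.51 CPM. Its log2 fold change was -0.44 ± 0.10, with an edgeR adjusted p of 0.0928, and 0.0123 with the replicate block. It belongs to a group of 5 H2A genes linked by coding identity of at least 99%, so its single value is uncertain. The sum of the group was 357.6, 334.8 and 382.6 CPM in MG-CM and 309.4, 265.4 and 313.7 CPM in CM-JAKi. Hist1h2ak, an H2A gene of higher CPM, had -0.22 ± 0.09 and did not overlap either, at 162.6 to 172.6 CPM in MG-CM and 132.4 to 153.4 CPM in CM-JAKi.

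The genes that can also be made as polyadenylated RNA were not called in any comparison by edgeR. In CM against MG-CM Hist1h1c had -0.27 ± 0.14, Hist1h2bc -0.04 ± 0.11 and Hist2h2be -0.31 ± 0.17. In CM-JAKi against MG-CM Hist1h1c had -0.37 ± 0.14, Hist1h2bc -0.21 ± 0.11 and Hist2h2be 0.01 ± 0.17, with edgeR adjusted p of 0.364, 0.566 and 0.993. Hist1h2bc was at 160.9, 186.1 and 198.6 CPM in MG-CM and 164.9, 144.6 and 160.4 CPM in CM-JAKi, so that the groups overlapped. Over features of the genes, medians lay close together in CM-JAKi against MG-CM, though a match could not be found in transcripts annotated only over the coding part. In that comparison the median was -0.242 for 43 members with a stem-loop match and -0.214 for 21 without, -0.254 for 16 whose transcript runs more than 200 bases past it, -0.25 for 52 on chromosome 13 and -0.222 for 9 on chromosome 3. In CM-JAKi against CM the medians lay further apart, in this order at -0.191, -0.138, -0.244, -0.168 and -0.259. In CM against MG-CM they were -0.0747, -0.104, -0.0778, -0.0815 and -0.0169. Differences between features were not tested.

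Hist1h2ap and Hist1h2br had the widest spread of the tested members, and each has a copy with the same coding bases. Hist3h2ba, next in spread, has no such copy. Hist1h2ao and Hist1h2ap have the same coding bases, so most reads of one could have come from the other. Hist1h2ap was at 78.31, 42.64 and 78.6 CPM in MG-CM, 35.46, 52.09 and 24.37 CPM in CM and 29.51, 16.1 and 13.77 CPM in CM-JAKi. That is a range of 5.71-fold, the widest of the 64 members. Hist1h2ao was at 122.4, 140.9 and 143 CPM, 164.5, 113.5 and 190.6 CPM, and 142, 134.9 and 171.3 CPM. The share of the pair's level given to Hist1h2ap ran from 7.44% to 39%, while the sum of both stayed between 151 and 221.6 CPM, a range of 1.47-fold.

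Hist1h2ap had the lowest log2 fold change of each comparison, at -0.84 ± 0.37, -0.91 ± 0.38 and -1.75 ± 0.38. It was not called by edgeR, with adjusted p of 0.179, 0.125 and 0.0813, and DESeq2 called it in CM-JAKi against MG-CM, with 0.000171. Hist1h2bq and Hist1h2br are a second such pair, in which Hist1h2br took 2.52% to 10.2% of 77.23 to 115.9 CPM. Hist2h2aa1 and Hist2h2aa2 are another, in which Hist2h2aa2 took 58.6% to 79.4% of 606.4 to 812.9 CPM. Their sum was 760.9, 752.2 and 793 CPM in MG-CM, 789.5, 629.8 and 812.9 CPM in CM and 704.7, 606.4 and 671.7 CPM in CM-JAKi. Hist1h4m and Hist1h4n, also the same in coding bases, had a steadier split, with 30.2% to 34.9% given to Hist1h4n. Values of single genes in these pairs are uncertain. The counts' strand setting is not given in the sources used here, so reads of overlapping neighbours may also be shared.

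**Figure D4:**
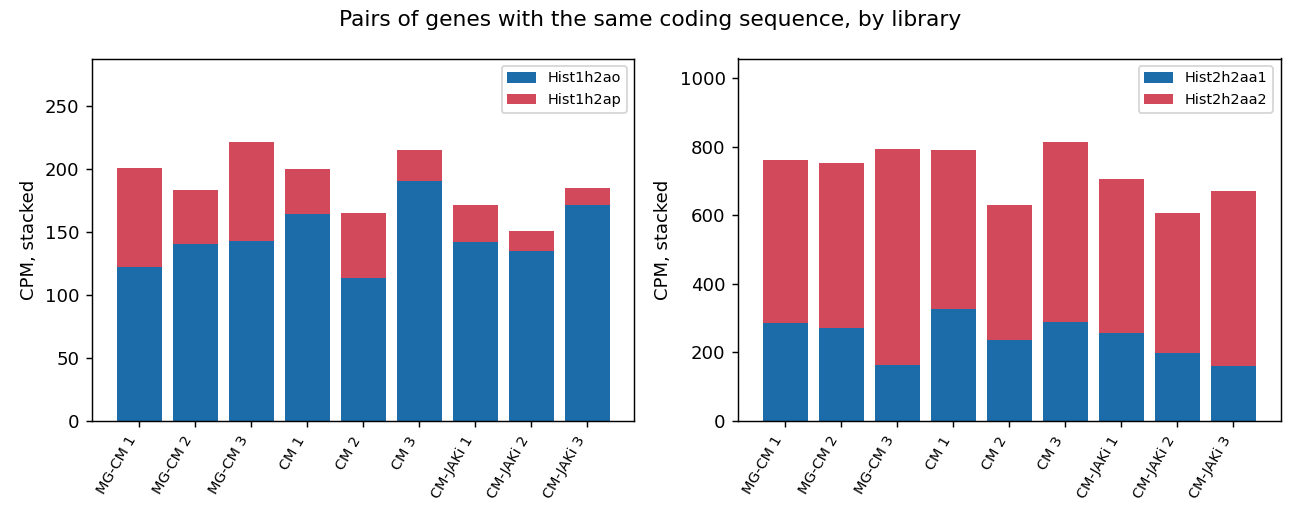
CPM of Hist1h2ao and Hist1h2ap (left) and of Hist2h2aa1 and Hist2h2aa2 (right), stacked, in each of the 9 libraries, named by group and replicate number on the horizontal axis, with the vertical axis from 0. The height of the left bars runs from 151 to 221.6 CPM, while the part of Hist1h2ap runs from 7.44% to 39%.

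The difference between lines could be tested only with 1 PSC4 library in each medium, which was assumed to vary like those of PSC5. Line and source of conditioned medium change together and cannot be told apart here. In a test of whether the change differed between PSC4 and PSC5, 0 members were called in each of the 3 comparisons by edgeR, with 2, 0 and 0 at p under 0.05 before adjustment and lowest adjusted p of 0.252, 0.403 and 1. Over all genes tested 31, 50 and 0 were called. The median difference of the members' log2 fold changes, PSC4 minus PSC5, was 0.206, -0.0344 and 0.216.

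Genes around the histone mRNA were tested from lists. Their counts read against the shares of all genes given above. In CM against MG-CM these were 4.85% higher and 5.39% lower, and 11.6% and 12.8% with the replicate block. For CM-JAKi against CM they were 10.1% and 8.93%, and 18.6% and 15.6% with the block. Nothing particular to a list was tested. Of 20 genes for histone gene transcription and mRNA processing and decay, 0 were called higher and 0 lower in CM against MG-CM, and 2 higher and 0 lower with the replicate block. In CM-JAKi against CM 0 were called higher and 3 lower, and 5 lower with the block. The 3 were Casp8ap2, which acts in histone pre-mRNA cutting, with -0.30 ± 0.09, and the cleavage factors Cpsf2 with -0.34 ± 0.08 and Cstf2 with -0.33 ± 0.09, at edgeR adjusted p of 0.0437, 0.0233 and 0.0369. These calls were lost in 11, 7 and 11 of 18 alternatives, with library size alone (0.172, 0.0685 and 0.0703) among them. Against MG-CM 0 were called for CM-JAKi in either direction by each fit. Slbp had -0.04 ± 0.12, -0.04 ± 0.12 and -0.08 ± 0.12 in the 3 comparisons, and Npat 0.03 ± 0.12, -0.16 ± 0.12 and -0.13 ± 0.12.

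Of 45 DNA replication genes, 3 were called higher and 0 lower in CM against MG-CM, namely Mcm10, Cdc45 and Gmnn. In CM-JAKi against CM 0 were called higher and 6 lower, among them these 3, Gins1 and Rpa3. With the replicate block the counts were 5 and 2, and 2 and 15. Between CM-JAKi and MG-CM 0 were called, and 1 lower with the block. Mcm10, which helps to start replication forks, was at 57.76, 64.34 and 70.26 CPM in MG-CM, 82.79, 84.97 and 81.42 CPM in CM and 49.48, 57.7 and 52.86 CPM in CM-JAKi. It rose by 0.37 ± 0.09 in CM and fell by 0.63 ± 0.09 with the inhibitor, with edgeR adjusted p of 0.0392 and 0.00377. The rises of Mcm10, Cdc45 and Gmnn in CM were lost in 11, 10 and 13 of 18 alternatives and their falls with the inhibitor in 2, 4 and 2. No histone member rose in CM against MG-CM by any fit.

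The summed level of the DNA replication list was set beside that of the histones, pair by pair. Its log2 ratios were 0.0668, 0.00172 and -0.028 in CM against MG-CM, where those of the histones were 0.0514, -0.312 and -0.0339. In CM-JAKi against CM they were -0.0944, -0.132 and -0.135, beside -0.157, -0.129 and -0.163. Between CM-JAKi and MG-CM they were -0.0277, -0.13 and -0.163, beside -0.106, -0.441 and -0.196. The difference between the lists was not tested, and Pcna, the replication clamp, had -0.19 ± 0.11 in the last comparison.

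Genes of histone variants that are not among the members were tested beside them. Of 10 such genes 1 was called higher in CM, H3f3b, and 2 lower with the inhibitor, H2afy and H3f3b. With the replicate block the counts were 2 higher and 3 lower, then 3 higher and 2 lower, and 0 in CM-JAKi against MG-CM by each fit. H3f3b, which encodes H3.3, was at 591.9, 668.6 and 649.2 CPM in MG-CM, 846.3, 766.3 and 832.9 CPM in CM and 589.4, 585.4 and 595.4 CPM in CM-JAKi. It rose by 0.35 ± 0.09 and fell by 0.46 ± 0.09, with edgeR adjusted p of 0.0466 and 0.0127. These calls were lost in 13 and 4 of 18 alternatives, and that of H2afy in 11. H3f3a, whose protein is the same, had -0.40 ± 0.13 and 0.39 ± 0.13, with 0.0783 and 0.0608, and 0.0444 and 0.0388 with the replicate block.

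Of 19 histone chaperone and assembly genes, 1 was called higher in CM and 2 lower in CM-JAKi against CM, and 2 and 7 with the replicate block. Daxx, which loads H3.3, rose by 0.59 ± 0.13 and fell by 0.84 ± 0.13, and Hat1, which acetylates new H4, fell by 0.35 ± 0.09 with the inhibitor. The calls of Daxx were lost in 10 and 1 of 18 alternatives and that of Hat1 in 9. Of 22 genes of G2 and mitosis, 0 were called in CM and 2 lower in CM-JAKi against CM, Bub1 and Ttk, whose calls were lost in 6 and 9 of 18 alternatives, and 2 higher and 5 lower with the block. Of 19 G1 regulators, Cdkn1b and Cdkn1c fell in CM, calls lost in 4 and 12 of 18 alternatives. With the inhibitor Cdkn1b and Cdkn2c rose while Lin9, Lin54 and Mybl2 fell. The calls of Cdkn1b, Cdkn2c, Lin9 and Mybl2 were lost in 2, 9, 6 and 4 of 18 alternatives. With the block 2 were called higher and 4 lower in CM, then 5 higher and 4 lower. Cdkn1b, a brake on entry into S phase, was at 149.3, 143.8 and 125.9 CPM in MG-CM, 80.27, 92.59 and 103.7 CPM in CM and 146.9, 139.8 and 129 CPM in CM-JAKi. In CM-JAKi against MG-CM 0 genes of these lists were called by edgeR, with or without the block.

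**Figure D5:**
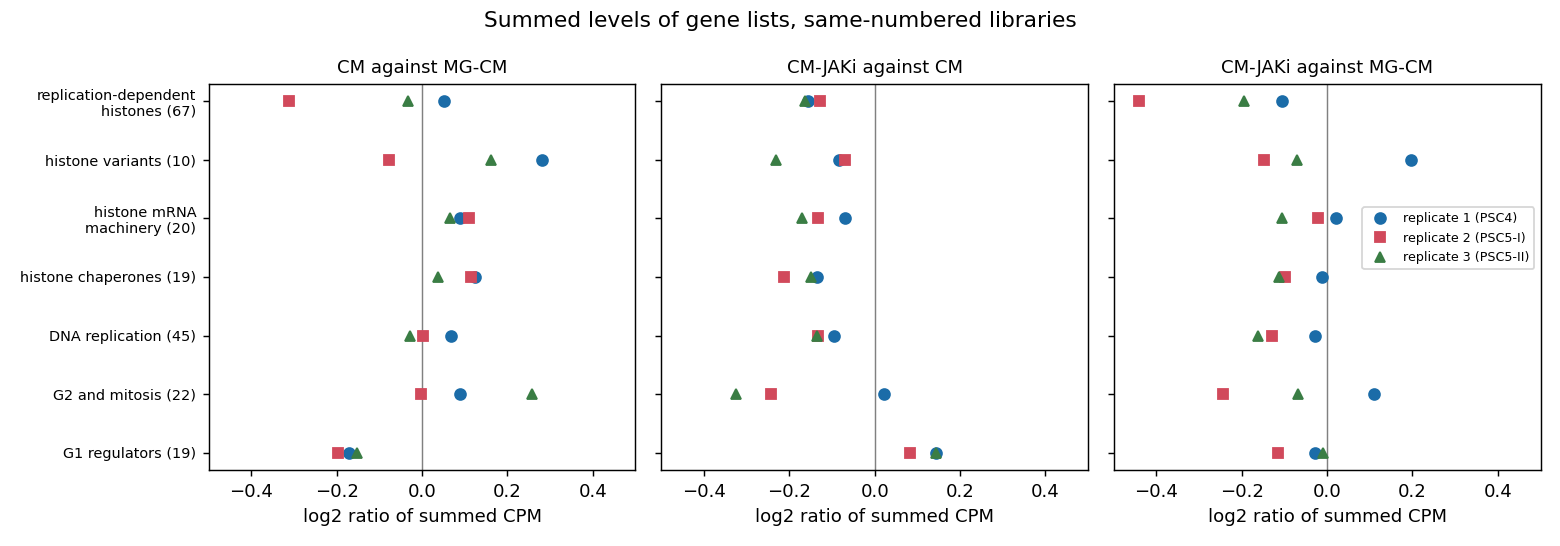
Log2 ratio of summed CPM (horizontal axes) between libraries of the same replicate number in the 3 comparisons, for the 67 histone members and for 6 lists of related genes, with the number of genes deposited in brackets and 1 point per replicate number. The histone points are at -0.163 to -0.129 in CM-JAKi against CM and all below 0 in CM-JAKi against MG-CM.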

How the data were processed

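Total RNA libraries were made with a stranded kit after ribosomal RNA removal, per the labels' protocols. The deposited gene counts, made by the authors, were read as estimated counts of the kind RSEM gives and were used as whole numbers. STAR 2.5.1b, RSEM 1.2.29, DESeq2 and the builds NCBIM37 and mm9 are listed, without roles, per the submitters' processing notes. The analysis used edgeR 4.0.16 and, as an alternative, DESeq2 1.42.0 in R 4.3.3. Genes were kept by filterByExpr (minimum count 10, minimum total 15), scaled by TMM and fitted over all 9 libraries with robust quasi-likelihood and a term per group. Each of 3 comparisons was tested by an F-test with Benjamini-Hochberg adjustment over 13613 genes, with calls at 0.05. The fit was tested on simulated data. Errors after fold changes are standard errors.

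The replicate numbers pair the libraries, since the labels give each number 1 line. After removal of group means, same-numbered libraries correlated at 0.312 to 0.719 over 9 pairs. Those of other numbers correlated at -0.587 to 0.308 over 18 pairs. The main fit had no term for the number, and the replicate block added it. Replicates of a group differed by more than sampling noise. They were separate cultures with separate medium sources, and replicate 1 was another line. What made them differ was not tested. Alternatives were the replicate block, other scalings, no filter, DESeq2, only the 2 groups compared, no robust estimation and leaving out libraries. The sums of members at least 99% identical, the test between lines, the sums without 2 called members and the block without replicate 2 were chosen after seeing the data.

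Members and gene lists were chosen with earlier results of these data known. Named genes were the 3 of most CPM per type, all H1 genes, Hist1h1c, Hist1h2bc and Hist2h2be, called members, the largest and smallest fold changes, 14 genes for histone mRNA, variants and proliferation, and called list genes of smallest p. H1f0, a histone variant, was not analysed here, and single values of 1 list gene are not reported here. Others were named after their values were seen. A list of 16 other RNAs without a poly(A) tail had 0 genes in the table. Sequences were matched by symbol to GENCODE M21 and RefSeq, of a build other than the authors' builds, with Biopython 1.88, and no coordinates were taken from the counts.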

Additional observations from a re-analysis of the deposited data

Results flagged for a closer look

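Each result here went one way in the PSC4 pair (replicate 1) and the other way in both PSC5 pairs (replicates 2 and 3). For single members the difference between lines was tested with 1 PSC4 library per medium, and 0 were called. For sums it was not tested. Line and source of conditioned medium cannot be told apart in these pairs. Many of the values are close to 0.

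In CM against MG-CM the summed level of all members had a log2 ratio of 0.0514 in PSC4 and of -0.312 and -0.0339 in PSC5. H2A had 0.00445 against -0.259 and -0.021, H2B 0.0667 against -0.272 and -0.00981, and H4 0.0592 against -0.324 and -0.0651. Hist1h4c had 0.0311 against -0.434 and -0.102, and Hist1h2bc 0.0805 against -0.186 and -0.00305. Of the genes for histone mRNA, Npat had -0.0898 against 0.149 and 0.0507, and Zfp473 0.351 against -0.316 and -0.168.

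In CM-JAKi against CM Hist1h3b had 0.0116 in PSC4 against -0.0278 and -0.114 in PSC5. Hist1h4c had -0.0998 against 0.0601 and 0.0665, and Hist1h1b 0.0544 against -0.0938 and -0.0031. Slbp had 0.126 against -0.0555 and -0.229, and Npat 0.0637 against -0.225 and -0.36. The G2 and mitosis sum had 0.0208 against -0.242 and -0.326.

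In CM-JAKi against MG-CM Hist2h4 had 0.0582 in PSC4 against -0.63 and -0.142 in PSC5, Hist2h2be 0.254 against -0.178 and -0.0961, Hist1h2bc 0.0351 against -0.364 and -0.308, and Hist1h1t -0.0941 against 0.12 and 0.262. H2afz had 0.498 against -0.0729 and -0.054, and H3f3a 0.207 against -0.223 and -0.0376. The PSC4 values of Slbp, Eri1, Pcna, Mki67, Hat1, Cdc45, Bub1 and Ttk were 0.0209, 0.115, 0.0215, 0.011, 0.0792, 0.0211, 0.0136 and 0.137, each with negative values in PSC5. The sums of histone variants, of the histone mRNA genes and of G2 and mitosis had 0.197, 0.0203 and 0.109 in PSC4, each with negative values in PSC5.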

How the results depend on the processing

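Across alternatives 0 results reversed a call. Members called lower numbered 0 in CM against MG-CM, 2 in CM-JAKi against CM and 0 for CM-JAKi and MG-CM, the order used below. With the replicate block they numbered 4, 9 and 5, with DESeq2 3, 9 and 8, and with library size alone 3 in the first, where that scaling also called 2 higher in CM-JAKi against CM. The block without replicate 2 called 1 lower in CM-JAKi against CM. Leaving out libraries gave 0 to 2, 0 to 9 and 0 to 3 lower, and 0 to 1 higher in CM-JAKi against CM. The 9 came without CM replicate 2, and 0 without CM-JAKi replicate 2, replicate 2 or replicate 3. Apart from the replicate block and DESeq2, shares of all genes are not given for these settings. Such counts are therefore not a result about the members.

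In CM-JAKi against CM, library size alone gave log2 ratios of -0.0154 for H1, -0.0548 for H2A, -0.104 for H2B, -0.107 for H3, 0.0277 for H4 and -0.0485 for all members, and a members' median of -0.069. Leaving out libraries gave -0.233 to 0.00101, -0.254 to -0.0917, -0.276 to -0.13, -0.305 to -0.134, -0.135 to -0.0189, -0.234 to -0.0766 and, for the median, -0.249 to -0.0935. Without its gene of most counts H4 had -0.125, and all members without the 5 such genes -0.173. Without Hist1h2bp and Hist2h4, H4 had -0.048. The causes were not tested. For 24 named members, 1201 of 1296 values kept direction and side of the threshold, 11 lost the call, 12 gained one and 72 changed sign without a call, 9 of them by more than the SE. For 30 other genes 1349 of 1620 kept both, 175 lost and 31 gained a call and 65 changed sign without one, 6 by more than the SE. Counting error is small for the sums and for most members, and 3 libraries per group limit precision. It is larger for members of few counts, such as Hist1h1t with 943 and Hist2h2be with 1260 over the 9 libraries.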
